A study of Mus musculus with 8 samples.

Results

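The nuclear genes of oxidative phosphorylation were followed by respiratory complex on 8 microarrays of mouse Peyer's patches, lymphoid tissue set in the gut wall. Members were taken by symbol, as probe sets annotated to 1 gene whose symbol starts with Nduf, Uqcr, Cox4i, Cox5, Cox6, Cox7, Cox8 or Atp5, or is Sdha, Sdhb, Sdhc or Sdhd, with pseudogene symbols left out. This gave 90 genes on 179 probe sets, of 18194 genes and 45101 probe sets in all. A further 10 probe sets that name a member together with other genes were left out. Of the 90 genes, 86 had a probe set above the median intensity of the table (11.9) and were tested, among 11988 genes. Complex I contributed 36 genes (35 tested), its Ndufaf assembly factors 8 (8 tested), complex II 4 (4), complex III 8 (8), complex IV 17 (14) and complex V 17 (17).

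All 8 C3H/Hej mice entered at 6 weeks of age and were gavaged daily for 28 days. Controls, 1 female (mouse 7) and 1 male (mouse 8), received the normal saline vehicle. The OVA groups, 2 females (mice 2 and 12) and 4 males (mice 1, 5, 8 and 13), received ovalbumin, the main protein of egg white and a common test allergen, at a daily dose of 40 mg/kg. This inbred strain, used in all groups, carries a Tlr4 that no longer responds to bacterial lipopolysaccharide. No separate cultures or pools are named, so each array is read here as 1 mouse, and with 1 control of each sex the spread of controls within a sex was not measured. Total RNA of the whole patch was labelled with biotin, so fewer cells of a type and less RNA per cell cannot be told apart. Peyer's patches are the labelled tissue, although the extraction text in the labels names brain tissue of a patient: 11 of 12 B cell markers passed the intensity filter, against 3 of 12 neuron and glia markers, 4 of 11 striated muscle markers and 0 of 4 brown fat markers. The array medians ran from 11.6 to 12.3, and the 3′ to 5′ ratio of the beta-actin control probes from 1.29 to 1.58. Precision is limited by how few arrays there are.

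Oxidative phosphorylation makes most of the ATP of resting cells in the inner mitochondrial membrane. Complex I (NADH dehydrogenase) and complex II (succinate dehydrogenase, also an enzyme of the TCA cycle) pass electrons to ubiquinone, complex III passes them on to cytochrome c, and complex IV (cytochrome c oxidase) to oxygen. The proton gradient built up by complexes I, III and IV drives complex V, the ATP synthase. Most subunits are encoded in the nucleus and a small number in mitochondrial DNA, and dedicated assembly factors put the complexes together. In the gut wall, absorptive enterocytes are rich in mitochondria, while resting lymphocytes have few.

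The promoters of 5 members are printed as examples, picked from the values below. Sdha and Sdhd belong to the complex that varied most between arrays. On the probe sets used, Ndufaf1 is 1 of the 3 of 86 tested members higher than both controls in every OVA mouse. Cox6a1 and Atp5k are 2 of the 3 members lower in every OVA mouse. Over all tested genes 7.99% were higher and 4.65% lower in this way, and none of the 5 members passed the test. Each is the 250 bases before the transcription start, 5′ to 3′ in the direction of the gene, from RefSeq on GRCm38.p6, and all 5 genes lie on the minus strand. Capitals mark the matches to 3 motifs on either strand: the core of the palindrome bound by the respiratory gene regulator NRF1 (a repeat on either side of 2 free bases), CCGGAAG, an ETS type site as bound by NRF2 (Gabpa), and GGGCGG, the GC box. Sdha, at chr13:74350241-74350490, has 3 NRF1 cores. Sdhd, at chr9:50603850-50604099, has 1 NRF1 core and 1 ETS type match. Ndufaf1, at chr2:119662835-119663084, has 1 GC box and 1 ETS type match. Cox6a1, at chr5:115348959-115349208, has 2 NRF1 cores, 2 GC boxes and 1 ETS type match. Atp5k, at chr5:108434400-108434649, has 1 NRF1 core.
Sdha: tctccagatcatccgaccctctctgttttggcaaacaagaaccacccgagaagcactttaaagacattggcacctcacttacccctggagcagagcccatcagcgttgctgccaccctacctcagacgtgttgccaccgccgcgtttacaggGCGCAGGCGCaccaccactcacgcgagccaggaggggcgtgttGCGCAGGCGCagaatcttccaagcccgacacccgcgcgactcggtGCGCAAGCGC
Sdhd: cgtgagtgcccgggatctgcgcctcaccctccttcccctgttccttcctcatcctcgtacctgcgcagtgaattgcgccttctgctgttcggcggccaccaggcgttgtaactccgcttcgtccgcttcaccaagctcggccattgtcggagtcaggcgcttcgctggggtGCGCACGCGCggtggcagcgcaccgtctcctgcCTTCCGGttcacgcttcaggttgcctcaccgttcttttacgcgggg
Ndufaf1: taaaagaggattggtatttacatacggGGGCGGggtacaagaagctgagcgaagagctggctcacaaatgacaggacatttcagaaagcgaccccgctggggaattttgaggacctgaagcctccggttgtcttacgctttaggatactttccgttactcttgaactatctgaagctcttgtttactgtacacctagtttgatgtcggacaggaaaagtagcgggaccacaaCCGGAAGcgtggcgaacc
Cox6a1: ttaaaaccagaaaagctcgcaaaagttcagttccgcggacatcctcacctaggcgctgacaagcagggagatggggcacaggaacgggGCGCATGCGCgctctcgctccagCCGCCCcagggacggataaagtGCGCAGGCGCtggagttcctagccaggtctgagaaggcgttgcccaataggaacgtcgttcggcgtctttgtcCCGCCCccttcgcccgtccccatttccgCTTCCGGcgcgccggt
Atp5k: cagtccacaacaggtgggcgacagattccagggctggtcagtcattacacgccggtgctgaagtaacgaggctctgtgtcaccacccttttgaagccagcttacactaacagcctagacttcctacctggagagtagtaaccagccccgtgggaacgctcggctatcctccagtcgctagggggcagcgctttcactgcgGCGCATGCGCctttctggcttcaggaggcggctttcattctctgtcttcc

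Over the members, 74 of 90 had 1 or more RefSeq promoters, 79 promoters in all. The NRF1 core was present in 15 of the 79 (19.0%), against 4.98% of all 32851 promoters and 6.85% of the 21262 promoters of protein-coding genes. The ETS type letters were in 14 (17.7%), against 6.91% and 8.98%. The GC box was in 31 (39.2%), against 32.7% and 42.6%. The YY1 type motif was in 0, against 0.207% of all, and the ERR type letters TCAAGGTCA in 1 (1.27%), against 0.387%. NRF1 cores were found in 7 of 34 promoters of complex I, 1 of 7 of its assembly factors, 2 of 3 of complex II, 0 of 5 of complex III, 1 of 12 of complex IV and 4 of 18 of complex V. These are matches of letters in a fixed window and say nothing of binding. The motifs can overlap, and both strands were read.

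The first comparison asked which of these transcripts differ in the patch when an allergen is fed for weeks. Most subunit transcripts of all 5 complexes lay slightly lower in OVA mice, while most complex I assembly factors lay higher. No single gene passed the test. Of the 78 subunits, 60 had a log2 difference under 0, with a median of -0.04. Of the 8 Ndufaf genes 7 were above 0 (Ndufaf8 by 0.0007), with a median of 0.16. Over all 86 members 61 were under 0 (median -0.04), where 46.3% of all tested genes were (median 0.02). The adjusted p from limma with Benjamini-Hochberg adjustment over all tested genes was under 0.05 for 0 of the 86 members (smallest 0.471), and the share among all tested genes was 0%. At an unadjusted p under 0.05, 3 members were higher (background 6.39%) and 0 lower (background 3.82%). The 95% interval lay within 0.5 log2 (a 1.41-fold change) on both sides for 80 of the 86 members. Their median half-width was 0.25. The median residual SD was 0.113 log2 for members and 0.164 for all tested genes. The lean of the subunits lay in the comparison within females. Without female control 7 only the males inform the difference. Then 36 of 78 subunits were under 0 and 42 above (median 0.01), where 48.7% of all tested genes were under 0. Without male control 8 only the females inform it, and the median of all members was -0.11.

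**Figure D1:**
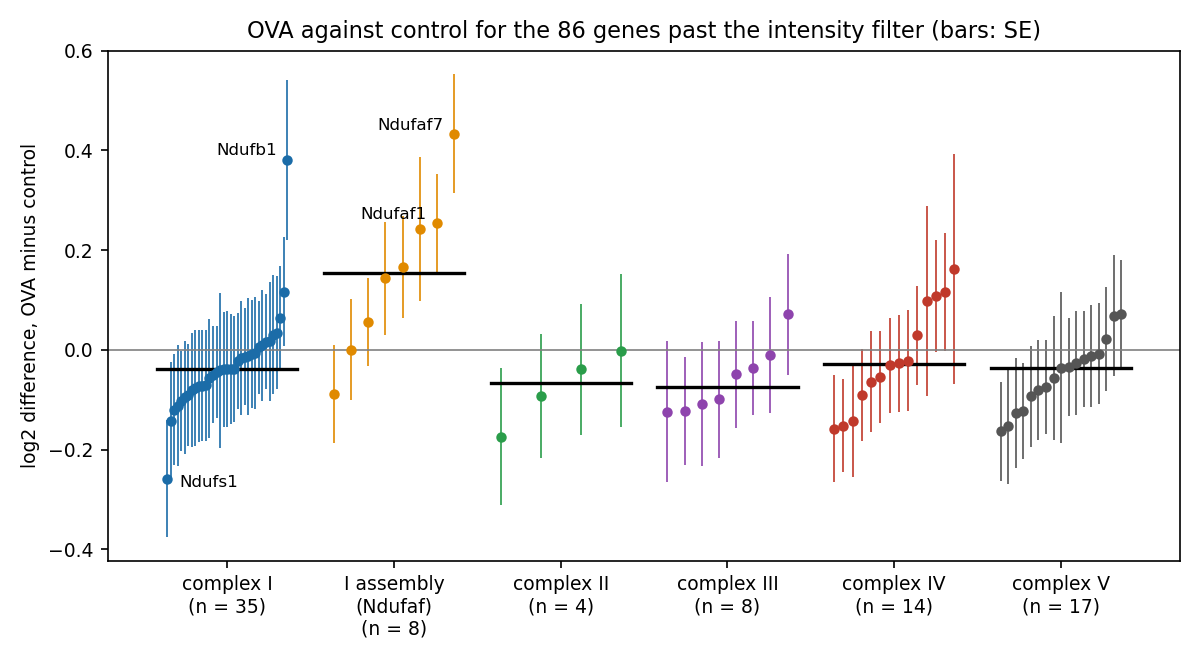
Log2 difference of OVA minus control with its SE (bars) for the 86 tested genes, sorted within each complex. Black lines are medians, from -0.07 (complexes II and III) to 0.16 (Ndufaf assembly factors), and no gene passed the adjusted threshold.

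Complex I is the entry point for electrons from NADH, and its membrane and matrix arms hold more subunits than any other complex. Of its 35 tested genes 26 were under 0, with a median of -0.04. The core subunits of the matrix arm, which carry the flavin and the iron-sulphur clusters, were under 0 in 6 of 6 (median -0.07), and the other 29 genes in 20 (median -0.04). Ndufs1, which holds iron-sulphur clusters and is the largest subunit, had the most negative difference of any member. It read 704 in the female and 636 in the male control, 530.4 and 524 in female OVA mice 2 and 12, and 549, 665, 539 and 579 in male OVA mice 1, 5, 8 and 13. The 6 OVA mice were below the female control, and male OVA 5 was above the male control, so the groups overlapped. The difference was -0.26 ± 0.12 log2 (SE, adjusted p = 0.491 by limma), and it ranged from -0.41 to -0.13 over the alternatives run. Its smallest size was within males, which is also the value without female control 7.

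Ndufb1, a small accessory subunit of the membrane arm, went the other way. Its probe set read 83.1 and 72.2 in the female and male control, 97.0 and 126 in female OVA mice 2 and 12, and 111, 84.9, 109 and 79.1 in male OVA mice 1, 5, 8 and 13. The 6 OVA mice were above the male control, and male OVA 13 was below the female control. The difference was 0.38 ± 0.16 log2 (SE, adjusted p = 0.477 by limma). Ndufb9, which sits in the membrane arm, was at 1613 and 1618 in controls, and the OVA mice ran from 1270.4 to 1651, 5 of them lower than both controls and male OVA 5 higher (-0.14 ± 0.12, SE). Ndufa3, another accessory subunit, was at 2172 and 2159.9 in controls and between 1769.9 and 2241 in OVA mice (-0.12 ± 0.11, SE). Ndufa5, an accessory subunit of the matrix arm, varied between mice within each group: controls read 576 and 487, female OVA mice 431 and 497, and male OVA mice 543, 647, 473 and 570.5, a difference of -0.04 ± 0.16 (SE). Ndufa4 is counted here by its symbol, although the protein is known as a subunit of complex IV. Its probe set was the brightest under an Nduf symbol, which does not measure abundance between genes, and read 2548 ± 61.9 (SD, n = 2) without OVA and 2532 ± 129 (SD, n = 6) with it. Its paralogue Ndufa4l2, known as a hypoxia-induced gene, read between 12.1 and 16.8 on the 8 arrays, just above the filter.

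The Ndufaf genes encode factors that help build complex I and are not part of the finished enzyme. Their mean log2 level was lower in both controls (-0.12 and -0.10 relative to the mean of the 8 arrays) than in any OVA mouse (-0.01 to 0.10). Ndufaf7, a mitochondrial methyltransferase needed for complex I assembly, had the smallest p of all members. It read 47.5 in the female and 70.6 in the male control, 81.1 and 79.2 in the female OVA mice, and 82.5, 82.6, 79.8 and 85.5 in the male OVA mice. The OVA mice lay close together above both controls, and the controls differed more from each other than any pair of OVA mice did. The difference was 0.43 ± 0.12 log2 (SE, adjusted p = 0.471 by limma, unadjusted 0.00605). Without female control 7, which leaves the males alone, it was 0.21. Ndufaf1, a chaperone of an early membrane arm intermediate, read 75.5 and 77.5 in controls, 83.8 and 86.1 in female OVA mice and 103, 99.0, 104 and 90.2 in male OVA mice. The groups did not overlap, and the difference was 0.25 ± 0.10 log2 (SE, adjusted p = 0.471 by limma).

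Ndufaf3, which works together with Ndufaf4 early in assembly, read 179.6 and 173 in controls, 187 and 211 in female OVA mice and 217, 192, 185 and 199 in male OVA mice. These 3 genes were the members above both controls in all 6 OVA mice, a pattern that 7.99% of all tested genes showed. Ndufaf4 was at 348 and 273 in controls and between 298 and 422 in OVA mice (0.24 ± 0.14, SE). That difference was 0.067 without male control 8 (females alone) and 0.39 without female control 7 (males alone). Ndufaf5 was at 48.7 and 48.8 against 48.4 to 61.7 (0.14 ± 0.11, SE). Ndufaf2, Ndufaf8 and Ndufaf6 had differences of 0.06, 0.00 and -0.09. The sign of Ndufaf8 changed under 7 of 19 alternatives, and Ndufaf2 had values exactly shared between arrays on 6 of the 8. The median of the 8 genes stayed above 0 under each alternative run and when each array was left out (0.11 to 0.20).

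**Figure D2:**
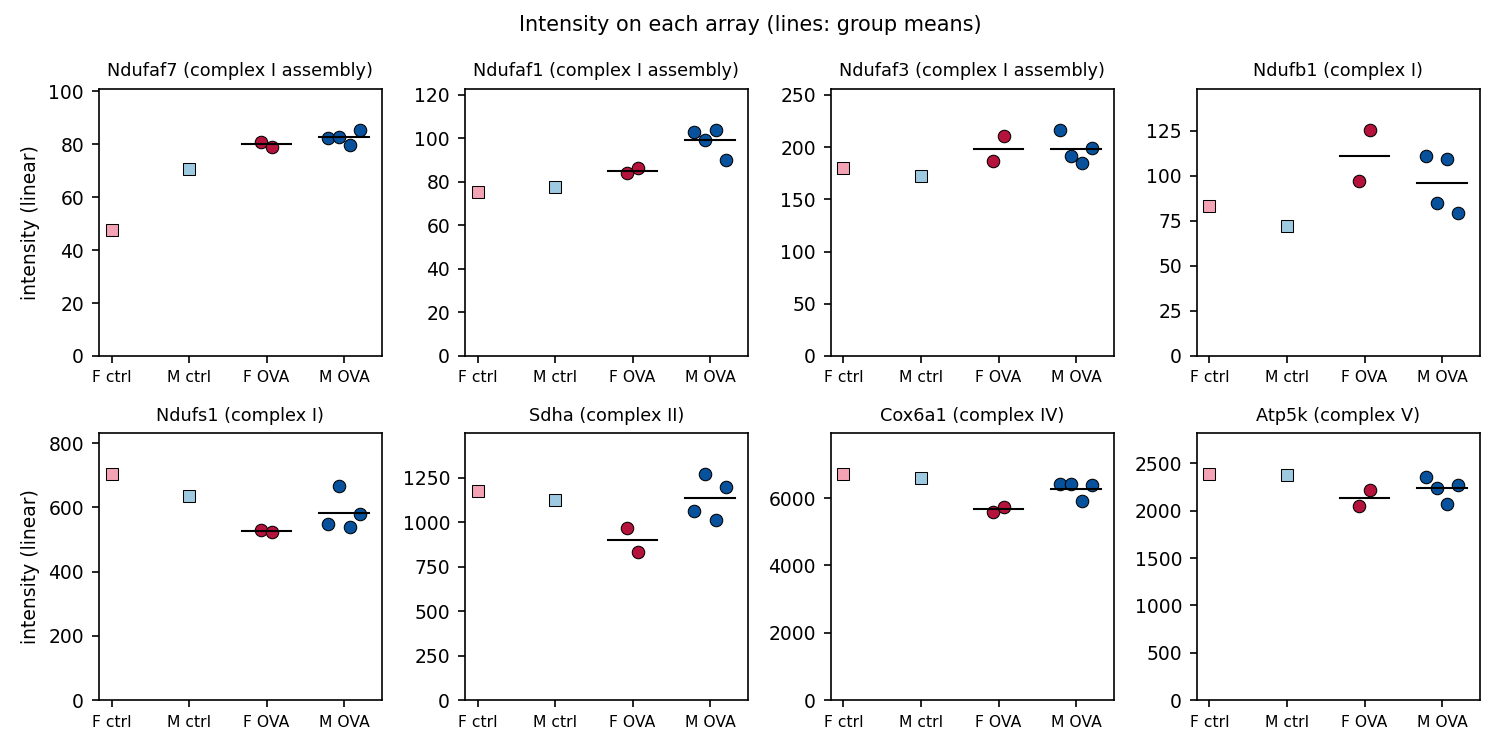
Deposited linear intensity of 8 members on each of the 8 arrays (squares controls, circles OVA mice, lines group means, F female and M male), each panel starting at 0. The OVA mice lie above both controls for Ndufaf7, Ndufaf1 and Ndufaf3 and below both for Cox6a1 and Atp5k, and overlap with the controls for Ndufb1, Ndufs1 and Sdha.

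Complex II is the only complex with no mitochondrially encoded subunit. All 4 genes had differences under 0 (median -0.07), and none passed the test. Sdhd was under 0 only at -0.0012, and its sign changed under 9 of 19 alternatives, that of Sdhc under 3. Within males 3 of the 4 genes were above 0. Sdha, the flavoprotein that oxidises succinate, read 1173 in the female and 1127 in the male control, 965 and 830.1 in the female OVA mice, and 1062, 1271, 1012 and 1197 in the male OVA mice. Both female OVA mice were below all other arrays, and the males spanned the controls, for a difference of -0.17 ± 0.14 log2 (SE, adjusted p = 0.626 by limma). Without female control 7, which leaves the males alone, the difference was 0.0043. Sdhb, the iron-sulphur subunit, was at 1998 and 1987 in controls, and in OVA mice it ran from 1653 in male 8 to 2164 in male 5 (-0.09 ± 0.12, SE). Sdhc, a membrane anchor, was at 395 and 386 in controls and between 332 and 472 in OVA mice (-0.04 ± 0.13, SE). Sdhd, the other anchor, was at 948 and 896 in controls and between 792 and 1147 in OVA mice, a difference of 0.00 ± 0.15 (SE). Male OVA 5 held the highest value of all 4 genes, and male OVA 8 or female OVA 12 the lowest.

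Complex III hands electrons from ubiquinol to cytochrome c, and 7 of its 8 genes were under 0 (median -0.07). Uqcrc1, a core subunit of the matrix side, was at 2383 and 2294 in controls and ran from 1864 in female OVA 12 to 2648 in male OVA 5 (-0.12 ± 0.14, SE). Uqcr11 and Uqcr10 are small accessory subunits. Uqcr11 was at 1169 and 1345 in controls and between 1045 and 1275 in OVA mice (-0.12 ± 0.11, SE), and Uqcr10 at 1609 and 1632 against 1294 to 1686 (-0.10 ± 0.12, SE). Uqcrq, which binds next to cytochrome b, read 1875 and 1859 in controls and 1456 in male OVA 8, with the other OVA mice between 1662 and 1894 (-0.11 ± 0.12, SE). Uqcrb, the brightest gene of the complex, averaged 5599 ± 77.0 (SD, n = 2) without OVA and 5487 ± 473 (SD, n = 6) with it. Uqcrc2, the partner of Uqcrc1 in the core, was the exception at 0.07 ± 0.12 (SE), and its controls were far apart, 1825 in the female and 1474 in the male. Cyc1, the cytochrome subunit that lies outside the symbol rule, was at -0.09 ± 0.12 (SE), and Cycs, cytochrome c itself, at 0.16 ± 0.19 (SE).

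In complex IV, which reduces oxygen to water, 9 of 14 tested genes were under 0 (median -0.03). Cox6a1, the common form of a regulatory subunit and the brightest member of all, read 6719 in the female and 6609 in the male control, 5592 and 5744 in the female OVA mice, and 6412, 6409, 5918 and 6389.5 in the male OVA mice. All 6 OVA mice were lower than both controls, by a difference of -0.15 ± 0.09 log2 (SE, adjusted p = 0.553 by limma). Cox8a, the common form of a small membrane subunit, read 1209 and 1264 in controls and between 981 and 1206 in OVA mice, again without overlap (-0.16 ± 0.11, SE). With Atp5k of complex V these were the members lower than both controls in all 6 OVA mice, 3 of 86 against 4.65% of all tested genes. This holds for the probe sets used, and each of the 3 genes had another fitted probe set on which the groups overlapped. There Cox6a1 read 2051 and 1993 in controls and up to 2106 in OVA mice, and Cox8a 1133 and 1186 against up to 1142. Atp5k read 1055 and 1045 against up to 1244, while a further Atp5k probe set did not overlap (1950 and 1951 against up to 1857). Cox5b, a subunit on the matrix side, was at 5306 and 5557 in controls and between 4412 and 5549 in OVA mice (-0.14 ± 0.11, SE). Cox4i1, a regulatory subunit that binds ATP, was level, with 3559 ± 56.8 (SD, n = 2) without OVA and 3521 ± 206 (SD, n = 6) with it, as was Cox7a2 (3900.1 ± 0.678 and 3898 ± 305).

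Several complex IV subunits exist as a common form and a form restricted to certain tissues, and their probe sets were read separately because levels of different probe sets cannot be set against each other. Cox4i2, a lung form, ran from 5.86 to 9.29, Cox7b2 from 2.63 to 3.65 and Cox8b, a heart, muscle and brown fat form, from 5.23 to 9.14, all under the filter on average and left untested. Cox6a2, the muscle form, was at 25.4 and 31.8 in controls and between 27.0 and 32.3 in OVA mice (0.03 ± 0.10, SE). Cox6b2, a testis form, was at 21.6 in the female and 38.1 in the male control and between 22.4 and 40.0 in OVA mice (0.16 ± 0.23, SE), the widest residual spread of any member (SD 0.34 log2). Cox7a1, a muscle form, had the next widest (0.27) and read 369 and 317 in controls and 280.3 to 433 in OVA mice (0.10 ± 0.19, SE). Cox8c read 38.6 and 46.3 in controls and 40.4 to 42.3 in OVA mice. Cox6b1, the common partner of Cox6b2, was at -0.09 ± 0.09 (SE). Cox7a2l, known as a factor of respiratory supercomplexes, was at 0.11 ± 0.11 (SE). The tested probe set of Cox7c was dim, 60.0 to 82.9, and higher in OVA mice by 0.12 ± 0.12 (SE). Cox7b has no probe set of its own here and was not analysed.

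Complex V turns the proton gradient into ATP, and 14 of its 17 genes were under 0 (median -0.04). Atp5a1, a subunit of the catalytic head, read 2721 and 2759 in controls, 2411 and 2334 in female OVA mice and 2344, 2754, 2419 and 2552 in male OVA mice. Only male OVA 5 reached the level of the controls, and the difference was -0.16 ± 0.10 log2 (SE, adjusted p = 0.545 by limma). Atp5d, in the central stalk, was at 2747 and 2886 in controls and ran from 2179.9 in male OVA 8 to 2752 (-0.15 ± 0.12, SE). Atp5k, a small membrane subunit involved in dimers of the enzyme, was at 2389 and 2378 in controls and between 2048 and 2361 in OVA mice (-0.12 ± 0.10, SE). Atp5mpl, a small membrane protein of the complex, was at 903 and 958 in controls and between 747 and 919 in OVA mice (-0.13 ± 0.11, SE). Atp5g3, which encodes a subunit of the proton-carrying ring, was the brightest of the complex at 4427 ± 307 (SD, n = 2) without OVA and 4397 ± 309 (SD, n = 6) with it. The inhibitor Atpif1, which blocks the enzyme from running in reverse, was at 884 and 868 in controls and between 731 and 1058 in OVA mice (-0.04 ± 0.12, SE).

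The complexes moved together from mouse to mouse, and OVA mice differed more from each other than from the controls. Set against the mean of the 8 arrays, the mean log2 level of all 86 members was 0.01 in the female and 0.00 in the male control, -0.08 and -0.04 in female OVA mice 2 and 12, and 0.07, 0.10, -0.10 and 0.04 in male OVA mice 1, 5, 8 and 13. Both controls lay inside the range of the OVA mice. The mean level of all tested genes also differed between arrays, from -0.04 in female control 7 and female OVA 2 to 0.03 in female OVA 12. Complex II had the widest range over arrays, 0.48 log2, from -0.23 in female OVA 12 to 0.25 in male OVA 5, against 0.20 for complex I, 0.29 for complex III, 0.19 for complex IV and 0.20 for complex V. Male OVA 8 held the lowest value of 33 of the 86 members (38.4%), against 18.0% of all tested genes, and male OVA 5 the highest value of 39 (45.3%), against 14.2%. These 2 mice had the same treatment and sex. Of genes in lists described below, male OVA 5 was highest for 71.4% (fatty acid oxidation), 58.8% (TCA cycle) and 53.8% (glycolysis). Male OVA 8 was lowest in the same lists for 21.4%, 5.88% and 15.4%. Among markers, male OVA 8 was lowest for 100% (goblet cell), 73.3% (epithelial barrier) and 38.5% (enterocyte). Male OVA 5 was highest for 12.5%, 13.3% and 38.5% of these markers.

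**Figure D3:**
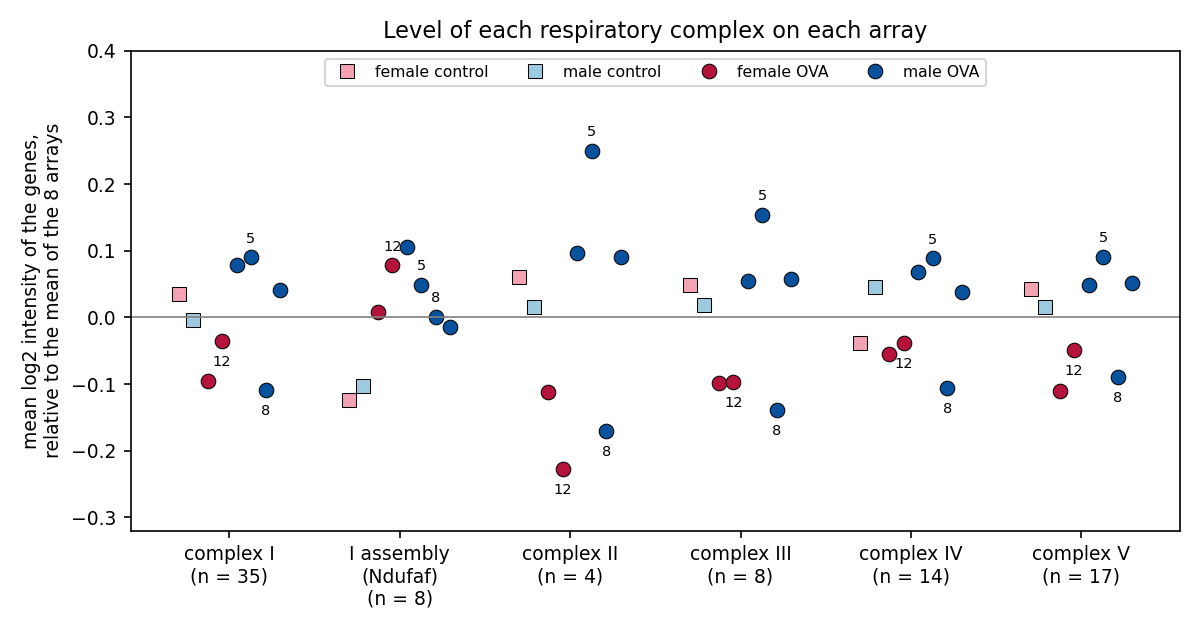
Mean log2 intensity of the tested genes of each complex on each array, relative to the mean of the 8 arrays (squares controls, circles OVA mice, labels mouse numbers). Subunits of all complexes were highest in male OVA 5, lowest in male OVA 8 or a female OVA mouse, with controls between, while the Ndufaf factors were lowest in the controls.

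Markers of other cell types also varied between arrays. The 13 of 14 enterocyte markers measured summed to an intensity of 49145 and 42834 in the controls and between 32729 (female OVA 12) and 50025 (male OVA 5) in OVA mice. Relative to the mean of the 8 arrays their mean log2 level was -0.48 in female OVA 12 and -0.21 in male OVA 8, and 0.17 in male OVA 5. The 11 of 12 B cell markers summed to 3636 and 3346 in controls and between 3441 and 7171 in OVA mice, with the highest sums in male OVA 8 and female OVA 12. Smooth muscle markers, 10 of 10 measured, were lowest in male OVA 5 (-0.58) and the sum ran from 3371 to 5765 in OVA mice against 6157 and 5310 in controls. In female OVA 2, which was low for the members (-0.08), the B cell level was -0.09, the enterocyte level -0.11 and the epithelial barrier level 0.08. The 15 of 16 epithelial barrier and 8 of 8 goblet cell markers measured were all under 0 for OVA against control (medians -0.26 and -0.25), with their lowest levels in male OVA 8 (-0.47 and -0.56). Their sums were 21162 and 22822 in controls and 14176 to 22273 in OVA mice for the barrier, and 22449 and 25293 against 15248 to 23760 for goblet cells. No measured marker of these lists was listed at 0. The 3′ to 5′ ratio of beta-actin was highest in male OVA 8 at 1.58, followed by male control 8 at 1.54. The part of cell makeup and RNA quality in the differences was not tested. Without female OVA 12 and male OVA 8 together, 47 of 86 members were under 0 (median -0.01), against 5835 of all 11988 tested genes (median 0.005). The Ndufaf genes kept a median of 0.12. Male OVA 8 had the lowest mean level of the members (-0.10), so a smaller lean without it follows from that level. Left out alone, female OVA 12 gave a member median of -0.04, male OVA 8 -0.01 and female OVA 2 -0.01. Leaving arrays out cannot separate cell makeup from other differences between mice.

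**Figure D4:**
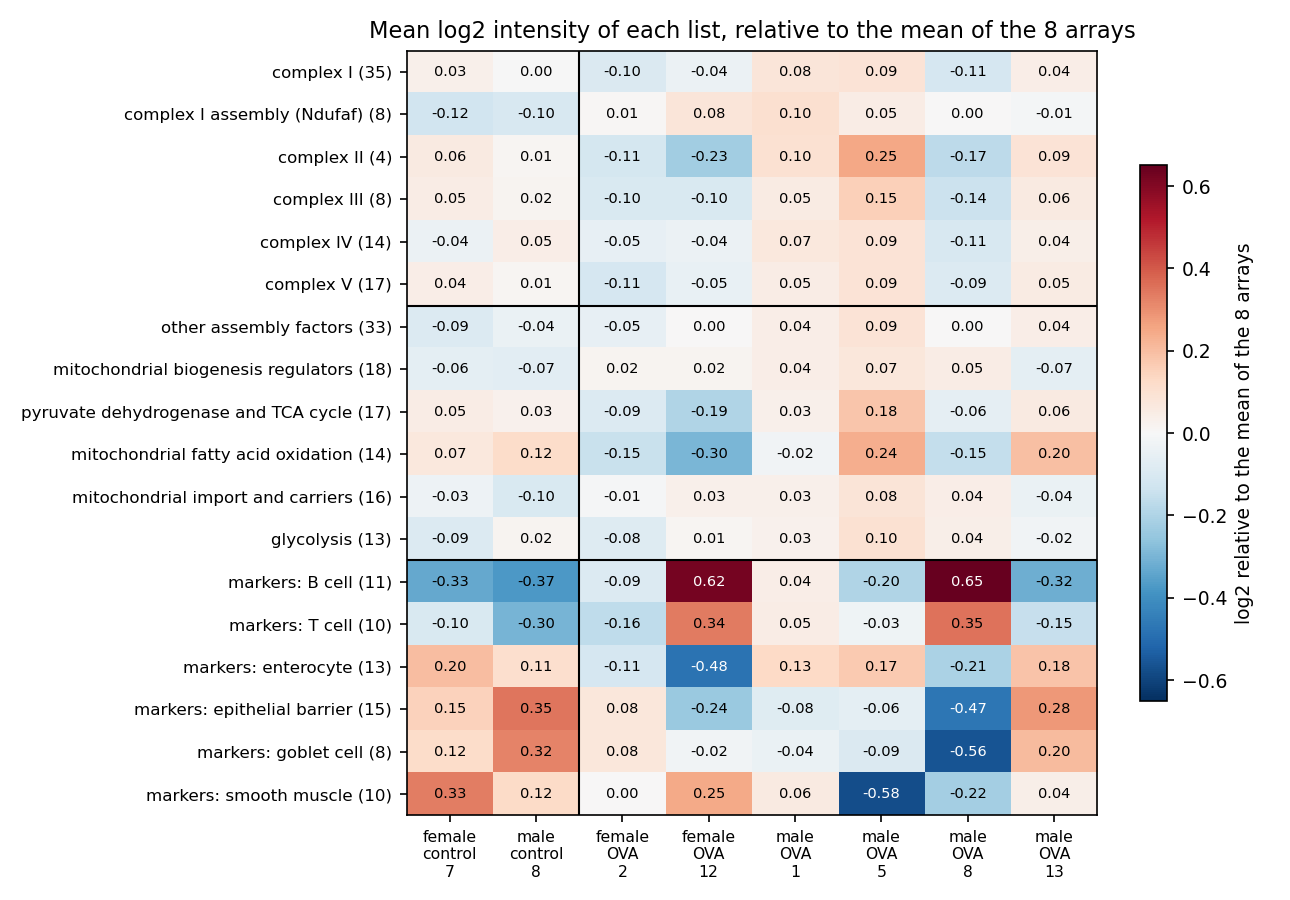
Mean log2 intensity of each gene list on each array, relative to the mean of the 8 arrays, with the number of tested genes in brackets. Female OVA 12 and male OVA 8 share high B cell values (0.62 and 0.65) and low complex II values (-0.23 and -0.17), and male OVA 5 is highest for complex II (0.25) and lowest for smooth muscle (-0.58).

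Genes around the respiratory chain did not share a single direction, and 0 of the 113 tested genes of 7 further lists passed the adjusted threshold. Their union had a median of 0.01, with 55 of 113 under 0 (48.7%), near the 46.3% of all tested genes. At an unadjusted p under 0.05, 2 were lower (1.77%, background 3.82%) and 8 higher (7.08%, background 6.39%), again near the background. Mitochondrial fatty acid oxidation, which feeds electrons to ubiquinone and NADH, was under 0 in 14 of 14 genes (median -0.16). Hadha, of the trifunctional protein, read 487 and 546 in controls, 390.2 and 349 in female OVA mice and 432, 512, 417 and 489.8 in male OVA mice (-0.31 ± 0.12 log2, SE), so the females were lower and the males overlapped with the female control. Cpt2, which reforms acyl-CoA inside the mitochondrion, was at 484 and 490.2 in controls and between 286 and 587 in OVA mice (-0.32 ± 0.18, SE). In the pyruvate dehydrogenase and TCA cycle list 12 of 17 were under 0 (median -0.07). Pdha1, the catalytic subunit of pyruvate dehydrogenase, read 911 and 1009 in controls and 739 to 896 in OVA mice, without overlap (-0.28 ± 0.10, SE). Pdhx, a structural component of the same enzyme, was higher in every OVA mouse, 83.1 to 93.4 against 70.8 and 74.8 (0.23 ± 0.09, SE).

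Over all tested genes 53.7% were above 0 (median 0.02), and the remaining lists are read against that share. Assembly factors outside the Nduf symbols were above 0 in 22 of 33 genes (66.7%, median 0.07), among them Sdhaf2, which attaches the flavin of Sdha and read 157 and 149 in controls and 169 to 221 in OVA mice (0.36 ± 0.12, SE), and Timmdc1, a complex I assembly factor, at 17.9 and 27.1 against 29.3 to 32.6 (0.36 ± 0.12, SE). Regulators of mitochondrial biogenesis were above 0 in 11 of 18 (61.1%, median 0.09), near that share. Tefm, the elongation factor of mitochondrial transcription, read 29.4 and 32.6 in controls, 49.4 and 60.7 in female OVA mice and 55.1, 49.4, 49.1 and 47.7 in male OVA mice. The groups did not overlap, at 0.67 ± 0.12 log2 (SE, unadjusted p = 0.000325), yet with 11988 genes tested the adjusted p was 0.471 by limma. Tfb2m, a mitochondrial transcription factor, was at 0.22 ± 0.10 (SE). Import and carrier genes were above 0 in 11 of 16 (68.8%, median 0.12), with Tomm40, the import pore, at 0.29 ± 0.09 (SE) and Phb2, an inner membrane scaffold, at 0.23 ± 0.09 (SE). Glycolysis had a median of 0.02 with 8 of 13 above 0 (61.5%), where Pfkm was at 0.25 ± 0.12 (SE) and Pfkp at -0.20 ± 0.12 (SE). The single probe set for the mitochondrially encoded Nd5 read 4915 and 4539 in controls, 4381 and 4335 in female OVA mice and 4547, 5239, 5302 and 4974 in male OVA mice, so that the groups overlapped.

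The design also allows females and males to be compared, with treatment as a term in the fit. In this fit the transcripts were mostly slightly lower in females. Of 86 members, 70 had a female minus male difference under 0 (median -0.07), where 54% of all tested genes were under 0 (median -0.01). The controls did not show this lean. Relative to the mean of all arrays, the mean log2 level of the members was 0.01 in the female and 0.00 in the male control. It was -0.08 and -0.04 in female OVA mice and 0.07, 0.10, -0.10 and 0.04 in male OVA mice. These levels include shifts of the whole array. Over all tested genes the level was -0.04 in the female and 0.00 in the male control. In female OVA mice 2 and 12 it was -0.04 and 0.03, and in male OVA mice 0.01 to 0.02. By limma 0 members passed the adjusted threshold (smallest adjusted p 0.878, background 0.0417%), and 0 passed an unadjusted p under 0.05 (background 5.32%). Complexes II and III were under 0 in 4 of 4 and 8 of 8 genes (medians -0.14 and -0.09), and the Ndufaf genes in 2 of 8 (median 0.01). The members with the smallest p were Sdha (-0.23 ± 0.12, SE), Ndufaf1 (-0.16 ± 0.09, SE), Ndufaf7 (-0.17 ± 0.11, SE) and Cox6a2 (-0.14 ± 0.09, SE). Under quantile normalization the median was -0.03.

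The last comparison set the OVA difference in males against that in females: the members leaned lower in OVA females and lay near 0 in OVA males, and no gene passed. In females 69 of 86 members were lower in OVA mice than in the control (median -0.11), and both OVA mice were below the control for 63, against 32.2% of all tested genes. In males 38 were lower (median 0.02), and all 4 OVA mice were below the control for 13, against a background of 23.7%. The difference between the sexes, males minus females, was above 0 for 66 of 86 members (median 0.11), where 44.3% of all tested genes were above 0 (median -0.05). Under quantile normalization the median was 0.03. By limma 0 members passed the adjusted threshold (smallest adjusted p 0.682, background 0%), and 2 an unadjusted p under 0.05 (background 7.09%). One was Uqcrc2, at -0.19 in females and 0.29 in males (difference 0.48 ± 0.18, SE), where male control 8 had the lowest value of all arrays. On a further fitted probe set of Uqcrc2 this control, at 1427.5, was not the lowest. Male OVA 8 read 1412 there and female OVA 12 read 1424. The other member was Ndufaf7, higher by 0.70 in females and 0.21 in males (difference -0.49 ± 0.17, SE), where female control 7 had the lowest value. Cox6b2, next in order of p, was at 0.63 in females and -0.23 in males (-0.87 ± 0.38, SE). Each of these rests on 1 control per sex.

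**Figure D5:**
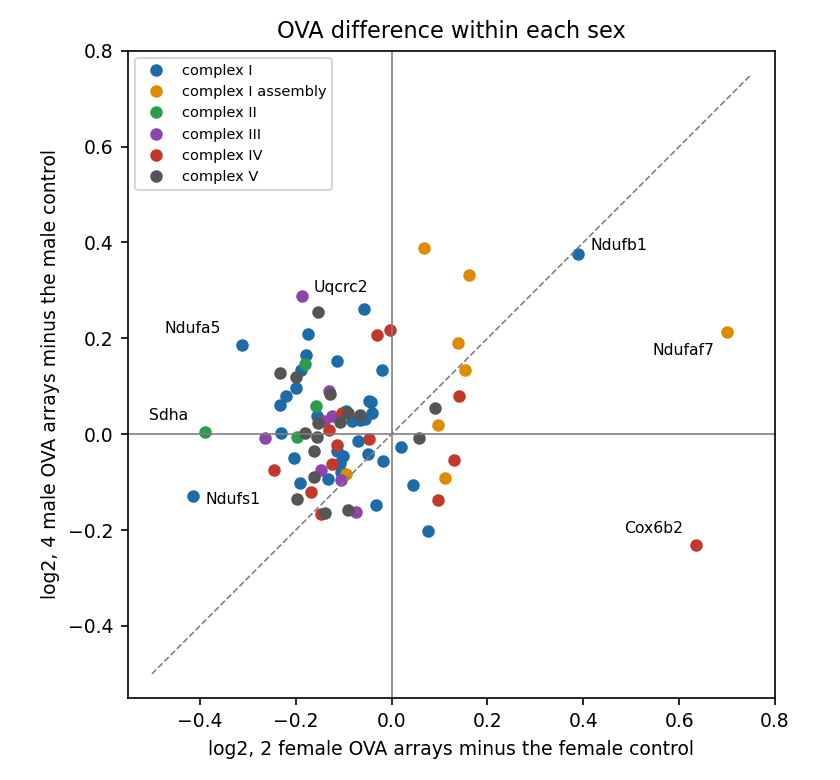
OVA minus control within females (x axis) and within males (y axis), in log2, for the 86 tested genes by complex, with the dashed line marking equal differences. Of the 86 genes 69 lie left of 0 in females and 38 below 0 in males, and Ndufaf7, Ndufb1 and Cox6b2 lie far to the right.

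Probe sets of the same gene did not always show the same sign. Of the 86 members, 46 had a further probe set above the filter, and for 14 of them it lay on the other side of 0: Atp5a1, Atp5h, Atp5j2, Atp5o, Cox5a, Cox6c, Ndufa5, Ndufa7, Ndufb5, Ndufb7, Ndufs8, Sdhd, Uqcrb and Uqcrh. With each gene taken as the mean of its probe sets, 55 of 86 members were under 0 (median -0.02), against 5358 of all 11988 tested genes (median 0.02). Exactly equal values on 2 or more arrays occurred in 14 of the 86 members (16.3%), against 28.7% of all tested genes. Ndufb4 was below the filter on the probe set that names it alone (4.79 to 7.25).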

How the data were processed

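Affymetrix mouse arrays of 1 colour were used for total RNA of 8 mice. The authors deposited probe set intensities on a linear scale (1.86 to 14749). MAS5 was used per the submitters' processing notes, and its version and settings are not stated in these sources. Values were analysed as log2 of the intensity plus 4.88 (the 25th percentile), without rescaling of arrays. The 64 AFFX probe sets were left out, and the 22518 probe sets with a mean above the median were fitted. Each gene was read from the brightest fitted probe set that names no other gene.

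Treatment and sex were compared in an additive model with limma 3.58.1 (lmFit, eBayes) in R 4.3.3, two-sided, with 5 residual and 3.59 prior degrees of freedom and Benjamini-Hochberg adjustment over 11988 genes (threshold 0.05). Whether the OVA effect differs by sex was read from a model of the 4 groups (4 residual degrees of freedom), which takes the spread of each lone control from the rest. Labels do not say whether arrays are separate animals beyond their numbers, so p-values measure the spread between these arrays. As a check of the code, the fit was run on simulated data with independent noise and planted differences larger than that of any member. That run does not bear on differences as small as those of the members. Levels of a list on an array are means of log2 values. Tables used Python 3.11.15, pandas 2.3.3 and SciPy 1.17.1, and plots matplotlib 3.10.9.

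The members and lists were chosen with earlier results of these data known. Genes named were, in complexes I, III, IV and V, the 4 of smallest p for OVA, all of complex II, 2 Ndufaf genes, every member with an unadjusted p under 0.05, the brightest member of each complex, 4 of smallest p for sex and 3 for the difference between sexes, 4 of largest residual SD, the tissue-restricted isoforms with their common forms, the ATP synthase inhibitor, and 2 of smallest p in each further list. Ndufaf2 to Ndufaf6, Cox7a2l and Nd5 were named after their values were seen. Alternatives were no filter, quantile normalization, median centring, another pseudocount (1 or the median), a filter raised to the 75th percentile, array weights, trend with robust variance, no covariate, each sex alone, the mean of probe sets and leaving out arrays.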

Additional observations from a re-analysis of the deposited data

Results flagged for a closer look

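Single arrays that stood apart from the rest of their group were looked for among the named members, by the gap to the nearest array over the range of the group (Dixon's 95% critical value). Of 86 groups tested 11 passed, where the nominal rate is about 1 in 20. The same share over all tested genes was not counted, and some members were named for their spread. No excess among the members can therefore be read from this count. Male OVA 8 was also the lowest of the 8 arrays for 18.0% of all tested genes. Male OVA 8 was the lowest of the 4 male OVA mice, far below the other 3, for Atp5d (2179.9), Atp5mpl (747), Cox4i1 (3230.1), Cox6a1 (5918), Ndufa4 (2336), Uqcr11 (1045) and Uqcrq (1456). Male OVA 5 was the highest for Uqcrc2 (1926), and for Cox7c (82.9) both among the male OVA mice and among all 6 OVA mice. Male OVA 5 was also the lowest male OVA mouse for Cox8c (40.4), where the other 3 hold exactly equal values, so the gap there comes from ties. The genes share their arrays and are not independent of each other.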

How the results depend on the processing

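The count of members past an adjusted p of 0.05 was 0 for all 3 comparisons under each alternative, including, added after seeing the data, adjustment over probe sets (smallest adjusted p of a member 0.378). The median of all members turned within males to 0.022, as did complex I (0.030), II (0.032), III (0.010) and V (0.024), which are the values without female control 7. With each array left out in turn, medians ran from -0.11 to 0.022 for all members, -0.10 to 0.030 for complex I, 0.11 to 0.20 for the Ndufaf genes, -0.19 to 0.032 for complex II, -0.14 to 0.010 for complex III, -0.074 to -0.019 for complex IV and -0.15 to 0.024 for complex V. Complex V was at -0.15 within females, complex II at 0.014 without female OVA 12 and male OVA 8 together, and the Ndufaf genes at 0.20 with the filter at the 75th percentile, which leaves 6. The difference between the sexes was 0.033 under quantile normalization (0.089 to 0.15 with arrays left out), and female minus male ran from -0.11 to -0.039. The further energy lists together were at -0.014 with the filter at the 75th percentile, -0.027 under quantile normalization and -0.024 within females (-0.024 to 0.041 with arrays left out). Cytochrome c and Cyc1 were at -0.018 with the mean of probe sets and -0.27 within females (-0.27 to 0.29), the pyruvate dehydrogenase and TCA list at 0.045 within males (-0.15 to 0.045), and glycolysis at -0.029 with the filter at the 75th percentile (-0.0080 to 0.033). Beyond fewer genes or arrays, the cause was not tested. Of 962 values of 51 named genes under alternatives, 924 moved by less than the spread between arrays, and 19 genes changed sign at least once. The labels give no depth, and probe sets near the filter, such as Ndufa4l2, carry little signal over background. No paired analysis was possible because the groups share only the number 8.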
